A study of Mus musculus with 2 samples.

Results

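The Ifit and antiviral interferon genes are 10 genes that cells are known to switch on after type I interferon: Ifit1, Ifit1bl1, Ifit2, Ifit3, Ifit3b, Isg15, Rsad2, Oasl2, Ifi44 and Zbp1. All 10 were found among the 31053 features of both matrices. They were chosen by name on earlier results of the same data, the TAC and sham UMI counts of antiviral genes by cell class, so each difference between the groups below is a description and not a test. The cells came from the hearts of C57BL/6 mice, wild type and 10 weeks old, after transverse aortic constriction (TAC), which narrows the aorta and raises the pressure load on the left ventricle, or after a sham operation. Cells carrying the leukocyte surface protein CD45 were sorted and profiled in droplets with 10x Genomics chemistry. Each group was treated as 1 library made from 6 mice, since every barcode carries the suffix 1, although the labels speak of several droplet wells. Neither animals nor wells within a group can be told apart. No test across animals was possible, and every interval below is a 95% interval for counting error only.

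Type I interferons bind the receptor pair IFNAR1 and IFNAR2, whose kinases JAK1 and TYK2 activate transcription factors that, with IRF9, bind a GAAA-rich element in front of antiviral genes. Interferon gamma uses the receptor pair IFNGR1 and IFNGR2 and acts mainly through another promoter element, the gamma-activated site. In injured tissue, RNA and DNA from dying cells can set off the same antiviral programme without a virus.

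The 5 Ifit members lie side by side. With Ifit1bl2, a close relative that is not a member, they fill 99316 bases of chromosome 19, from 34550694 to 34650009 in GRCm38, the assembly that mm10 names. Ifit2 (ENSMUSG00000045932) spans 34550694 to 34576419, Ifit3 (ENSMUSG00000074896) 34583531 to 34588731, Ifit1bl1 (ENSMUSG00000079339) 34592891 to 34601956, Ifit3b (ENSMUSG00000062488) 34607970 to 34613401 and Ifit1 (ENSMUSG00000034459) 34640871 to 34650009. The other members lie alone on separate chromosomes, Isg15 (ENSMUSG00000035692) at 156199424 to 156200818 of chromosome 4, Rsad2 (ENSMUSG00000020641) at 26442746 to 26456452 of chromosome 12, and Oasl2 (ENSMUSG00000029561) at 114896936 to 114912234 of chromosome 5. Ifi44 (ENSMUSG00000028037) lies at 151730922 to 151749960 of chromosome 3 and Zbp1 (ENSMUSG00000027514) at 173206612 to 173218923 of chromosome 2. All 10 are protein coding in GENCODE vM21, and no member overlaps another annotated gene. RefSeq promoter sequences (GRCm38.p6, 250 bases before to 50 after the start) were matched for 9 members, all but Zbp1. GAAA, any 2 bases and GAAA again, a core form of the interferon-stimulated response element, was searched on both strands. It stood in 6 of the 9 windows, against 943 of 27025 promoters (3.49%). For members the entry nearest the annotated start was used, and for all promoters the first entry of each gene. The members were listed as known interferon genes, so these numbers describe the list and not the response in these cells. Windows around the matches are shown because they show which of the members, all higher in TAC, carry the element and where. Each is written 5′ to 3′ on the gene's own strand with every match in capitals, and TTTC, any 2 bases and TTTC is the same element read on the opposite strand.
Isg15, chr4:156200856-156200915, minus strand: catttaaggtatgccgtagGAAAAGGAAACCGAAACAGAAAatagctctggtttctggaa
Ifit1, chr19:34640769-34640828, plus strand: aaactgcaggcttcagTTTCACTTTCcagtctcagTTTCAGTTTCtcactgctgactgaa
Ifit1bl1, chr19:34602038-34602097, minus strand: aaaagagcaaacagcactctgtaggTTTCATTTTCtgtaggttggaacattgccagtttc
Ifit3, chr19:34583363-34583426, plus strand: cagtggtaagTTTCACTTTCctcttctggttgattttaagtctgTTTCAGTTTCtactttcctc
Ifit3b, chr19:34607759-34607822, plus strand: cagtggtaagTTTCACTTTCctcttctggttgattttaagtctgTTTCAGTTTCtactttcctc
Rsad2, chr12:26456538-26456597, minus strand: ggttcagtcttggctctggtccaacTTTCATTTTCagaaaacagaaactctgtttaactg
Isg15 held 3 overlapping matches between 78 and 56 bases before the start. Ifit1, Ifit3 and Ifit3b held 2 each, and Ifit1bl1 and Rsad2 held 1 each. The Ifit3 and Ifit3b windows have the same letters throughout. The windows of Ifit2, Oasl2 and Ifi44 did not hold the element's letters. The letters TTCNNNGAA, a core form of the gamma-activated site, stood in 1 of the 9 windows, that of Ifit2, against 8.47% of all promoters. The transcripts of Ifit3 and Ifit3b are 98.0% identical over 1697 aligned bases and those of Ifit1bl1 and Ifit1bl2 90.5%. Reads may therefore have been assigned to the wrong copy, and the separate values of Ifit3, Ifit3b and Ifit1bl1 are uncertain.

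The TAC library held 7975 barcodes and the sham library 11941, of which 5601 TAC and 4169 sham barcodes had at least 300 genes and at most 10% mitochondrial counts of unique molecular identifiers (UMIs). Over 10% mitochondrial UMIs were found in 2246 TAC and 7590.0 sham barcodes. Median depth of the kept barcodes was 13892 UMIs in TAC and 9536 in sham, and 7 kept barcode sequences occurred in both libraries. Cells were clustered without the interferon lists and named by markers, with "like" meaning similar in markers. The macrophage-like class had 2482 TAC and 2129 sham cells. Endothelial-like and fibroblast-like cells, which are not leukocytes, were present although CD45+ cells had been sorted. Many barcodes of other classes also carried the macrophage transcripts of complement C1q at over 0.3% of their UMIs. Such barcodes were 70.3% of TAC and 93.4% of sham T-like cells, 48.0% and 94.3% of NK-like cells, and 71.9% and 98.7% of B-like cells. They were 41.4% of TAC and 35.3% of sham classical monocyte-like cells, 8.82% and 37.9% of endothelial-like cells, and 8.06% and 13.2% of fibroblast-like cells. Barcodes rich in C1q outside macrophages, or in the neutrophil genes S100a8 and S100a9 outside neutrophils, are called mixed below. Counts and sums of the members are given with and without them, except for T-like, NK-like and B-like cells, where under 20 sham cells remained. Values of single genes, shares of cells and other gene lists are from all barcodes of a class unless stated. Without mixed barcodes 33 sham classical monocyte-like cells remained, fewer than the 50 required of a class as a whole.

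In macrophage-like cells every one of the 10 genes was higher in TAC. Together they made up 1609 CPM, the UMIs per 1000000 UMIs of the class, in TAC and 280.05 CPM in sham, a 5.75-fold difference (5.60 to 5.90). All 10 were at least 1.5-fold higher and 0 were lower, beside 14.0% of the 12566 genes with at least 20 UMIs that were higher by as much and 22.9% that were lower. The median log2 ratio of the members was 2.70 and that of all measured genes -0.11. Neutrophil markers moved with this difference, since 17 of 19 measured passed 1.5-fold upward and their summed level was 1546 CPM in TAC and 232 CPM in sham macrophage-like cells. Classical monocyte markers moved likewise, with 8 of 10 past 1.5-fold upward and 1 downward, at 282 CPM in TAC and 118 CPM in sham. Of non-classical monocyte markers, 6 of 9 passed upward and 1 downward. Macrophage markers went the other way, with 9 of 19 past 1.5-fold downward and 1 upward. Their sum was 38707 CPM in TAC and 51206 CPM in sham macrophage-like cells. The median mitochondrial share of these cells was 4.68% in TAC and 8.21% in sham. The members' median log2 ratio was 2.69 with up to 25% mitochondrial UMIs allowed and 2.65 with mitochondrial UMIs left out of the total. Without barcodes rich in S100a8 and S100a9 the members were 5.64-fold higher (5.49 to 5.79), again with 10 of 10 past 1.5-fold, beside 13.1% of measured genes. S100a8 remained at 112 CPM in TAC and 7.19 CPM in sham in those barcodes, and the part of neutrophil RNA in the difference was not tested further.

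The Ifit genes encode proteins with tetratricopeptide repeats that bind foreign RNA and block its translation. Ifit1, which binds viral RNA caps that lack a host methyl group, was at 73.9 CPM in TAC and 31.3 CPM in sham macrophage-like cells, 2.36-fold higher (2.17 to 2.57). Ifit2 was at 150.1 CPM in TAC and 18.2 CPM in sham, 8.27-fold higher (7.47 to 9.18). Ifit3, which in human cells stabilises IFIT1, was at 191 CPM in TAC and 31.9 CPM in sham, 5.99-fold higher (5.54 to 6.49). Within this gene cluster the fold of Ifit1 was thus the smallest and its interval lay below those of the other 4 members. Ifit3b was at 35.7 CPM in TAC and 6.46 CPM in sham, 5.52-fold higher. Ifit1bl1 was at 7.45 CPM in TAC and 0.734 CPM in sham, 10.2-fold higher (6.14 to 18.0), on 289 TAC and 16 sham UMIs. Its sham UMIs were unevenly spread. Ifit1bl1 was at 24.6 CPM in 8 sham cells of cluster 2 and 115 CPM in 8 of cluster 10, described below. In the sham cells of every other macrophage-like cluster it was at 0.393 CPM or less. Ifit1bl2, which starts head to head with Ifit1, was at 1.11 CPM in TAC and 0.229 CPM in sham.

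The Ifit genes were higher in the other classes too, but by other amounts. In endothelial-like cells Ifit2 was at 421 CPM in TAC and 77.1 CPM in sham, 5.46-fold higher (4.42 to 6.83). Ifit3 was at 455 CPM in TAC and 68.5 CPM in sham endothelial-like cells, 6.65-fold higher. In fibroblast-like cells Ifit3 was at 330.4 CPM in TAC and 41.0 CPM in sham, 8.06-fold higher (6.49 to 10.1), while Ifit2 was at 64.9 CPM in TAC and 20.7 CPM in sham, 3.13-fold higher (2.27 to 4.41). The fold of Ifit3 thus lay above that of Ifit2 in fibroblast-like cells and below it in macrophage-like cells, with separate intervals in both. In classical monocyte-like cells Ifit1 was at 75.8 CPM in TAC and 15.7 CPM in sham on 9 sham UMIs. Ifit1bl1 had 41 UMIs in TAC and 0 in sham endothelial-like cells, at least 4.33-fold higher if 3 UMIs are set as the floor of the sham class.

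Isg15 encodes a ubiquitin-like protein that is attached to other proteins and is also secreted. It was at 497 CPM in TAC and 70.2 CPM in sham macrophage-like cells, 7.08-fold higher (6.72 to 7.47). Among the 7 compared classes its fold ran between 4.66 (3.95 to 5.54) in endothelial-like cells and 9.73 (8.06 to 11.8) in B-like cells, and its level between 332 and 599 CPM in TAC and between 53.9 and 128 CPM in sham. The groups did not overlap in level in any of these classes. Of the 4 genes of ISG15 conjugation and removal, 3 passed 1.5-fold upward in TAC macrophage-like cells, beside 14.0% of all measured genes, and 0 downward, beside 22.9%. Ube2l6, the conjugating enzyme, was 3.79-fold higher, Usp18, the protease that removes ISG15, 3.24-fold and Herc6, the ligase in mouse, 2.85-fold. Uba7, the activating enzyme, was at 27.96 CPM in TAC and 19.2 CPM in sham.

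Rsad2 encodes viperin, a radical-SAM enzyme that makes a chain-terminating nucleotide. It was at 186 CPM in TAC and 38.7 CPM in sham macrophage-like cells, 4.79-fold higher (4.46 to 5.15). In endothelial-like cells it was at 728 CPM in TAC and 145 CPM in sham, 5.03-fold higher (4.31 to 5.91). Within either group Rsad2 was thus higher in endothelial-like than in macrophage-like cells. In fibroblast-like cells it was at 68.6 CPM in TAC and 10.4 CPM in sham. In classical monocyte-like cells the fold depended on mixed barcodes. It was 2.69 (1.86 to 4.05) in all of them, and without mixed barcodes Rsad2 was at 79.9 CPM in 120 TAC cells and 79.5 CPM in 33 sham cells (interval of the ratio 0.646 to 1.63).

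Oasl2, an oligoadenylate synthetase-like protein of RNA sensing, had folds between 1.26 and 3.41 over the compared classes. It was at 142 CPM in TAC and 54.7 CPM in sham macrophage-like cells, 2.60-fold higher (2.44 to 2.77). In NK-like cells it was at 72.4 CPM in TAC and 57.4 CPM in sham, 1.26-fold (0.90 to 1.79), the one measured member short of 1.5-fold there. Related oligoadenylate synthetase genes gave unlike ratios in macrophage-like cells. Oas3 was 6.86-fold higher (5.81 to 8.15) and Oas1g 2.34-fold. Oas2 was at 24.3 CPM in TAC and 34.2 CPM in sham.

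Ifi44, an interferon-induced cytoplasmic protein, had the highest fold of the members in macrophage-like cells. It was at 20.3 CPM in TAC and 0.734 CPM in sham, 27.6-fold higher (16.9 to 48.6), on 787 TAC and 16 sham UMIs. In endothelial-like cells it was at 162 CPM in TAC and 36.8 CPM in sham, 4.40-fold higher (3.23 to 6.15). Sham endothelial-like cells thus held more Ifi44 than TAC macrophage-like cells did. In fibroblast-like cells Ifi44 was at 56.8 CPM in TAC and 6.13 CPM in sham, 9.28-fold higher.

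Zbp1 encodes a sensor of left-handed nucleic acid that can start RIPK3-driven cell death. It was at 306 CPM in TAC and 27.2 CPM in sham macrophage-like cells, 11.2-fold higher (10.3 to 12.2). In endothelial-like cells it was at 272 CPM in TAC and 14.6 CPM in sham, 18.7-fold higher (11.6 to 32.2), and in fibroblast-like cells at 208 CPM in TAC and 13.7 CPM in sham, 15.2-fold higher (10.5 to 22.8). These were the highest folds among the members with sham UMIs in both classes. In classical monocyte-like cells Zbp1 was at 406 CPM in TAC and 119 CPM in sham, 3.41-fold higher (2.68 to 4.41), so that sham monocyte-like cells stood above the other compared sham classes. Of 5 partners of ZBP1, 2 passed 1.5-fold upward in TAC macrophage-like cells, beside 14.0% of all measured genes, and 1 downward, beside 22.9%. Mlkl, which breaches the membrane in necroptosis, was at 17.9 CPM in TAC and 3.16 CPM in sham, 5.67-fold higher (4.42 to 7.37). Ripk3, the kinase that activates MLKL, was at 19.6 CPM in TAC and 4.45 CPM in sham, 4.40-fold higher (3.56 to 5.49). Casp8, the protease that holds necroptosis in check, was at 71.5 CPM in TAC and 67.9 CPM in sham, and Ripk1 at 57.9 CPM in TAC and 90.4 CPM in sham, a ratio of 0.641.

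**Figure D1:**
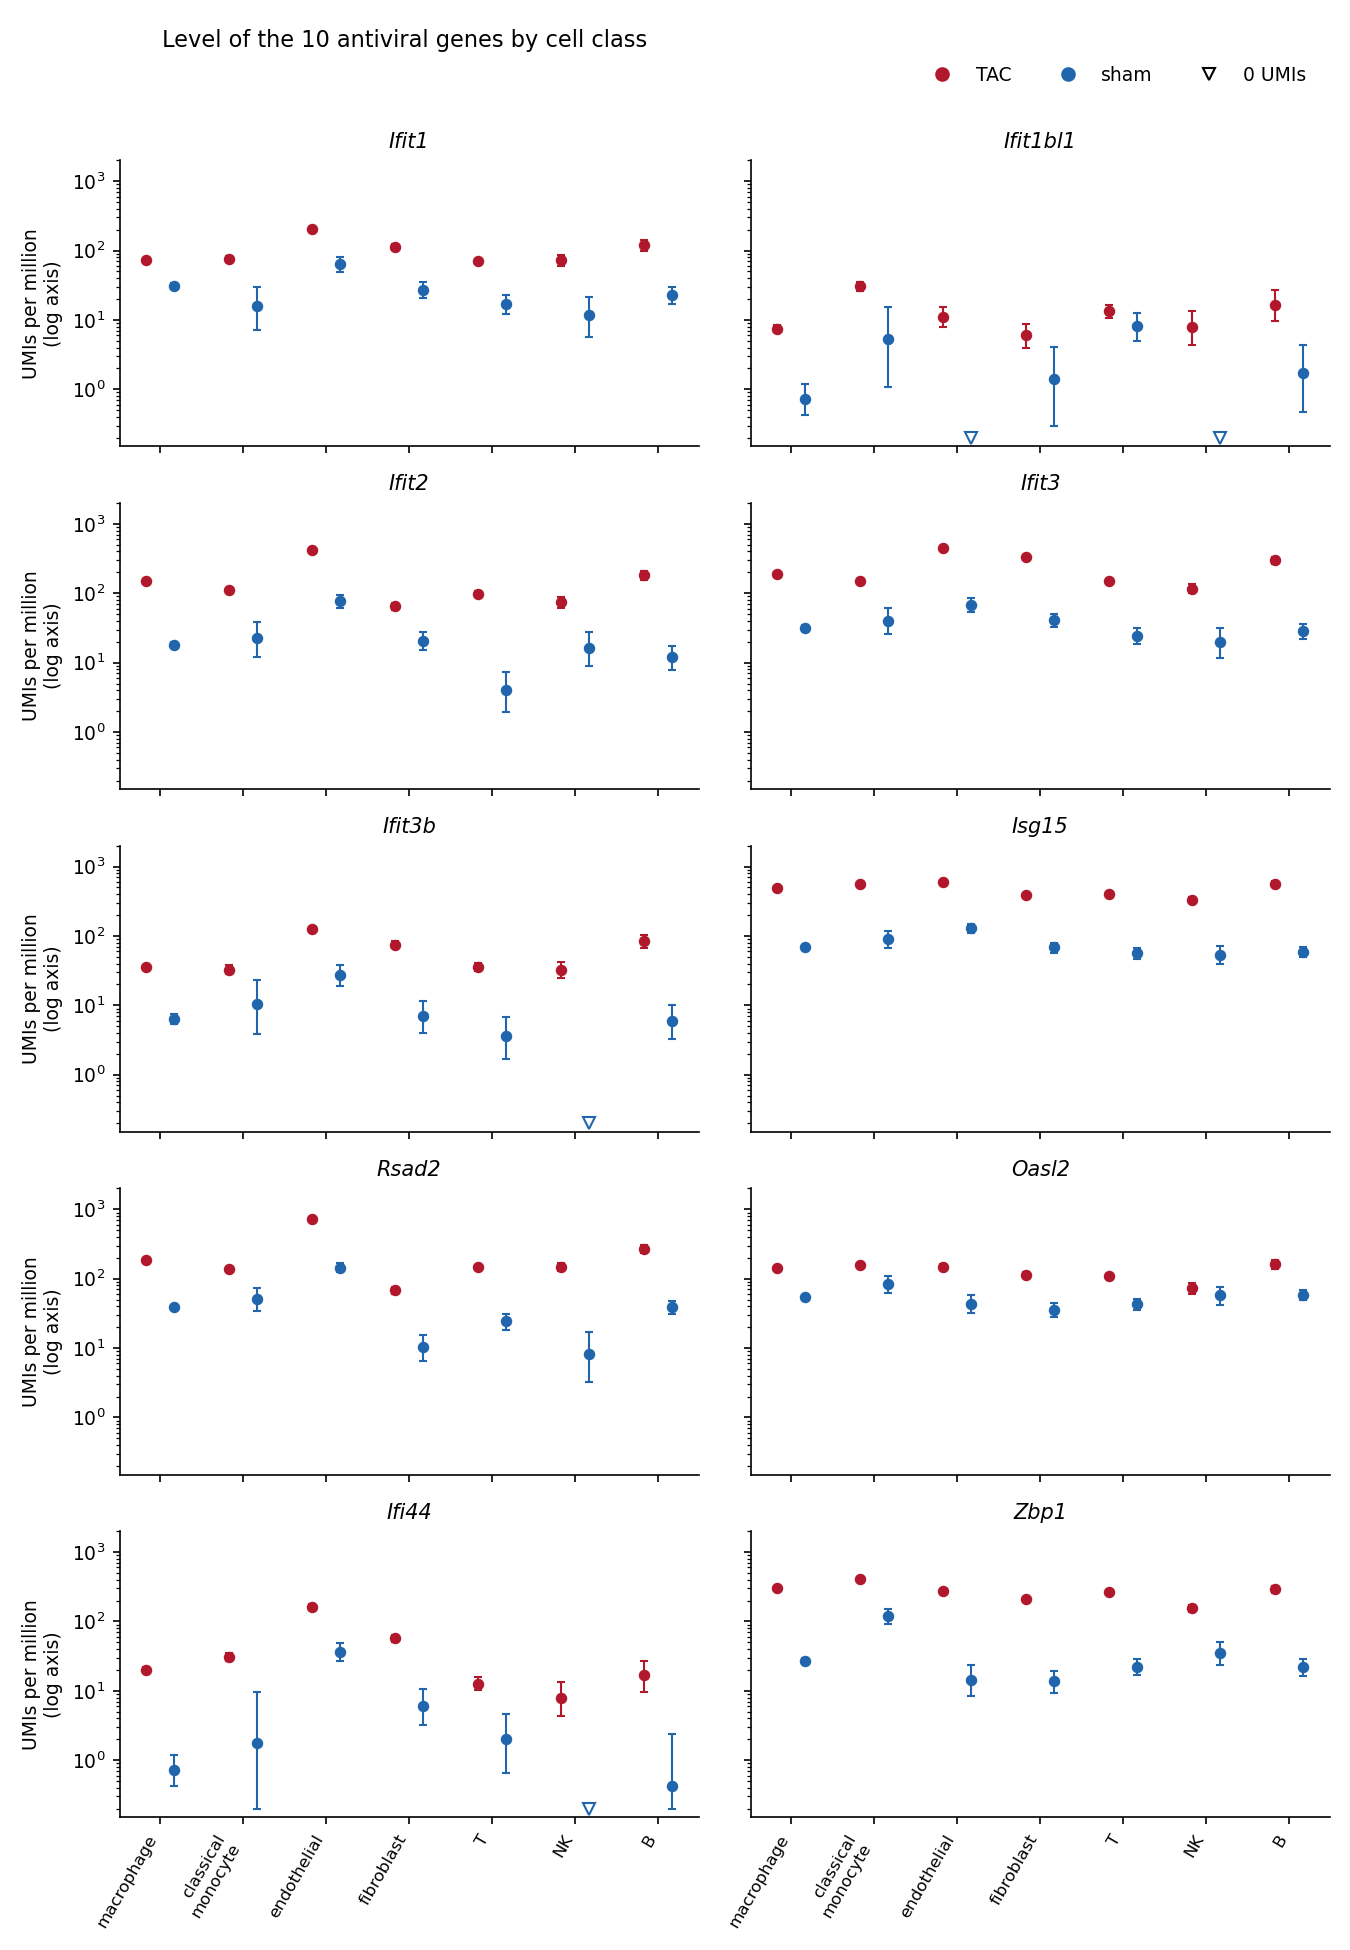
Level of each of the 10 genes in CPM of the class (log axis) in 7 cell classes, TAC in red and sham in blue, with 95% Poisson intervals for counting error; lower ends are drawn no lower than 0.2 and open triangles mark 0 UMIs. TAC points stand above sham points in every panel and class, with the nearest pair for Oasl2 in NK-like cells at 72.4 CPM in TAC and 57.4 CPM in sham.

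The difference was present in each class with at least 50 cells in both libraries. In classical monocyte-like cells (256 TAC and 51 sham) 10 of 10 members were at least 1.5-fold higher, beside 20.7% of all measured genes, and 0 lower, beside 18.8%. Their sum was 1697 CPM in TAC and 439 CPM in sham, 3.87-fold higher (3.41 to 4.40). Without mixed barcodes 8 of 10 passed, beside 22.4%, and the sum was 1751 CPM in TAC and 626 CPM in sham, 2.80-fold higher (2.41 to 3.27). Ifit3b, at 1.41-fold (0.565 to 4.55), and Rsad2 were the exceptions. S100a8 was at 8199 CPM in TAC and 22.7 CPM in sham over all classical monocyte-like barcodes, and at 332 CPM in TAC and 38.03 CPM in sham without mixed ones. In endothelial-like cells (408 TAC and 116 sham) 10 of 10 were higher, beside 15.2%, and 0 lower, beside 16.2%. Their sum was 3124 CPM in TAC and 605 CPM in sham, 5.17-fold higher (4.79 to 5.58), and 4.14-fold higher without mixed barcodes, with 10 of 10 past 1.5-fold beside 17.6%. In fibroblast-like cells (248 TAC and 212 sham) 10 of 10 were higher, beside 9.69%, and 0 lower, beside 19.2%. Their sum was 1431 CPM in TAC and 231 CPM in sham, 6.20-fold higher (5.65 to 6.81), and 6.32-fold higher without mixed barcodes, where 9 of 9 measured members passed beside 10.4%. Markers of other cell types moved in both of these classes. In endothelial-like cells the summed macrophage markers were at 6516 CPM in TAC and 16312 CPM in sham and the erythroid markers at 7044 CPM in TAC and 26931 CPM in sham, while 8 of 10 classical monocyte markers and 5 of 5 measured platelet markers were at least 1.5-fold higher. In fibroblast-like cells the macrophage markers were at 3639 CPM in TAC and 10350.0 CPM in sham. Their part in the result was not tested beyond leaving out mixed barcodes.

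**Figure D2:**
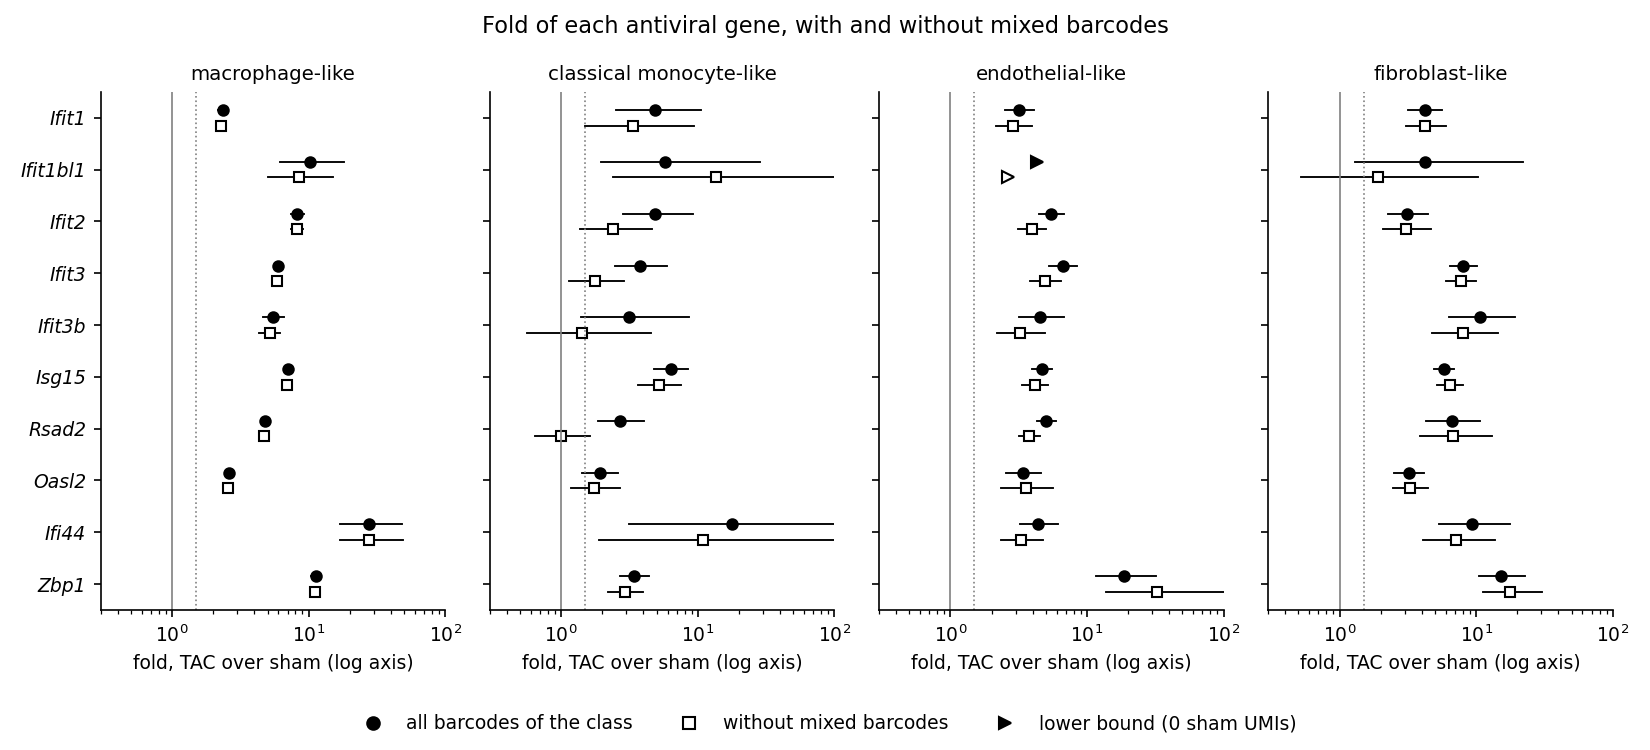
Fold of each gene, TAC over sham (log axis), in 4 cell classes, from all barcodes (filled circles) and without mixed barcodes (open squares), with 95% counting intervals drawn between 0.3 and 100; triangles are lower bounds against 0 sham UMIs, the solid line marks 1-fold and the dotted line 1.5-fold. Circles and squares lie close together in macrophage-like and fibroblast-like cells, while in classical monocyte-like cells the square for Rsad2 stands on the 1-fold line.

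Lymphocyte classes showed the same direction but could not be compared without mixed barcodes. In T-like cells (300 TAC and 152 sham) 10 of 10 members were at least 1.5-fold higher, beside 19.6% of all measured genes, and 0 lower, beside 19.1%. In NK-like cells (75 TAC and 53 sham) 7 of 8 measured members were higher, beside 25.1%, and 0 lower, beside 20.4%. In B-like cells (57 TAC and 159 sham) 9 of 9 were higher, beside 15.3%, and 0 lower, beside 24.4%. The member sum was 6.37-fold higher in T-like, 5.03-fold in NK-like and 8.04-fold in B-like cells. Neutrophil markers were higher in TAC in these classes, with 17 of 19 measured in T-like, 14 of 16 in NK-like and 17 of 18 in B-like cells past 1.5-fold. Their sum was 5407 CPM in TAC and 1453 CPM in sham T-like cells, 4920.5 CPM in TAC and 2032 CPM in sham NK-like cells, and 12561 CPM in TAC and 1368 CPM in sham B-like cells. Macrophage markers were lower in TAC in all 3 classes, at 27152 CPM in TAC and 43857 CPM in sham B-like cells. How much of the member sums came from neutrophil or macrophage RNA in the same barcodes was not tested. Of the TAC cells, 85 T-like and 39 NK-like barcodes were not mixed, and the sum was 759 CPM in those T-like cells and 1301 CPM in all TAC T-like cells. It was 343 CPM in the unmixed NK-like cells and 1019 CPM in all TAC NK-like cells.

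The classes differed in which of the genes stood high. Among the 8 classes ranked in TAC, neutrophil-like cells had the highest level of Ifit1, Ifit1bl1, Ifit3, Ifit3b, Isg15 and Oasl2, with Isg15 at 1333 CPM. Endothelial-like cells had the highest level of Ifit2, Rsad2 and Ifi44, and classical monocyte-like cells that of Zbp1. The neutrophil-like and endothelial-like intervals of Ifit3, at 474 and 455 CPM, overlapped, as did the monocyte-like and neutrophil-like intervals of Zbp1, at 406 and 381 CPM. Without mixed barcodes, Ifi44 in TAC was at 188 CPM in endothelial-like cells, 56.4 CPM in fibroblast-like cells, 20.4 CPM in macrophage-like cells and 1.03 CPM in neutrophil-like cells, on 5 UMIs. Over the 7 classes ranked without mixed barcodes, neutrophil-like cells had the highest Isg15, at 1938 CPM, and the lowest Ifi44. Over all barcodes NK-like cells had less Ifi44 than neutrophil-like cells, at 7.98 and 11.5 CPM. For each 100 UMIs of Isg15, TAC endothelial-like cells without mixed barcodes held 139 UMIs of Rsad2, and fibroblast-like cells held 14.97. Ifit3 stood at 88.9 in fibroblast-like, 86.9 in endothelial-like, 38.8 in macrophage-like and 23.5 in classical monocyte-like cells on that scale. Oasl2 varied less over these 4 classes and neutrophil-like cells, between 19.7 in neutrophil-like and 28.8 in fibroblast-like cells. In sham cells without mixed barcodes the same measure of Rsad2 was 154 in endothelial-like and 14.1 in fibroblast-like cells, so the contrast between these classes was present in both libraries.

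**Figure D3:**
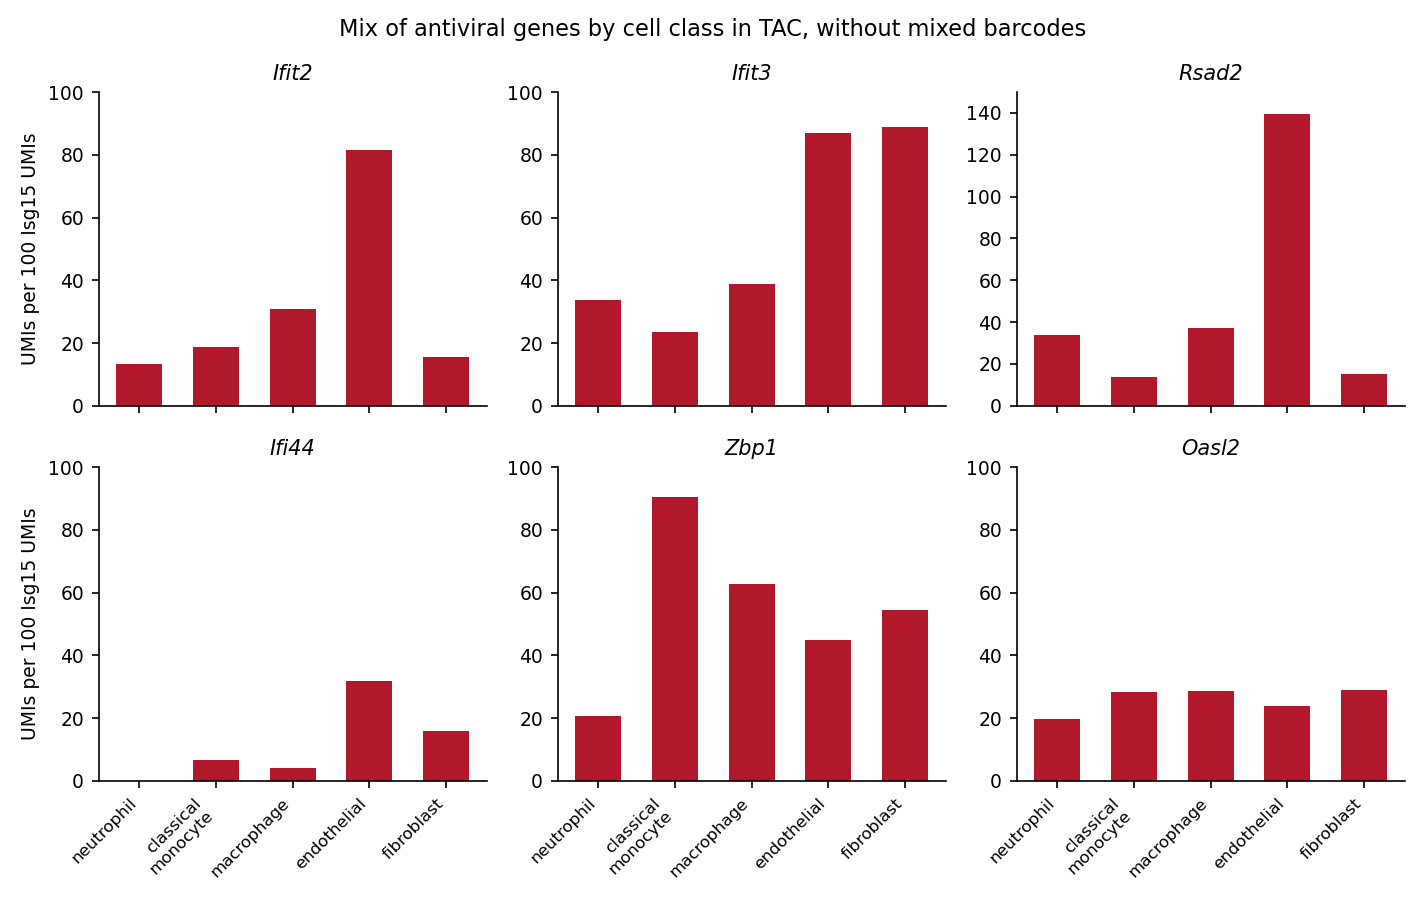
UMIs of 6 genes for each 100 UMIs of Isg15 in 5 cell classes of the TAC library without mixed barcodes; the vertical axis runs to 150 for Rsad2 and to 100 for the others. Endothelial-like cells stand out for Rsad2 at 139 and Ifi44 at 31.9, classical monocyte-like cells for Zbp1 at 90.5, and Oasl2 lies between 19.7 and 28.8 in all 5.

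Single cells showed how widely the genes were switched on. Each cell was thinned to 2000 UMIs, and cells with fewer were left out. Of the rest, 78.6% of TAC (77.0 to 80.2) and 27.4% of sham (25.5 to 29.4) macrophage-like cells held a UMI of at least 1 of the genes. At least 3 were detected in 32.4% of TAC and 2.63% of sham cells, and at least 5 in 8.08% and 0.894%. Without thinning, at least 1 was detected in 96.98% of TAC and 62.1% of sham macrophage-like cells. The tenth of cells with most member UMIs held 39.3% of those UMIs in TAC and 68.0% in sham. A high share in the top cells goes in part with the lower number of member UMIs in sham, so the 2 shares are given as values only. The genes also occurred together. Isg15 was detected in 64.1% of the 587 TAC cells with an Ifit3 UMI and in 39.0% of the other TAC cells. In sham it was detected in 31.1% of the 103 cells with Ifit3 and in 8.90% of the others. Endothelial-like cells held at least 1 of the genes in 91.9% of TAC and 44.0% of sham cells, and fibroblast-like cells in 74.1% of TAC and 23.2% of sham cells.

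Shares for single genes were taken at 1000 UMIs per cell, with cells below that depth left out. Isg15 was detected in 30.8% of TAC (29.0 to 32.7) and 5.21% of sham (4.31 to 6.24) macrophage-like cells, and without thinning in 82.96% of TAC and 30.6% of sham cells. Zbp1 was detected in 24.2% of TAC and 2.40% of sham macrophage-like cells. No class is known to lack these genes, so RNA from other cells was gauged with C1qa, a macrophage gene, and S100a8, a neutrophil gene. All barcodes of a class were counted, so these shares hold mixed barcodes as well as free RNA. By C1q, 8.06% of TAC and 13.2% of sham fibroblast-like barcodes were mixed. By S100a8 and S100a9, 2.10% of TAC and 0.42% of sham macrophage-like barcodes were. C1qa was detected in 12.6% of TAC and 19.0% of sham fibroblast-like cells, against 99.1% of TAC and 98.5% of sham macrophage-like cells. S100a8 was detected in 13.3% of TAC and 1.08% of sham macrophage-like cells, against 97.7% of TAC and 92.0% of sham neutrophil-like cells. Median depth was 13900 UMIs in TAC and 9031 in sham macrophage-like cells, and 15140 and 8924 in fibroblast-like cells. Ifi44 was detected in 2.22% of TAC and 0.0939% of sham macrophage-like cells, the sham share resting on 2 cells.

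**Figure D4:**
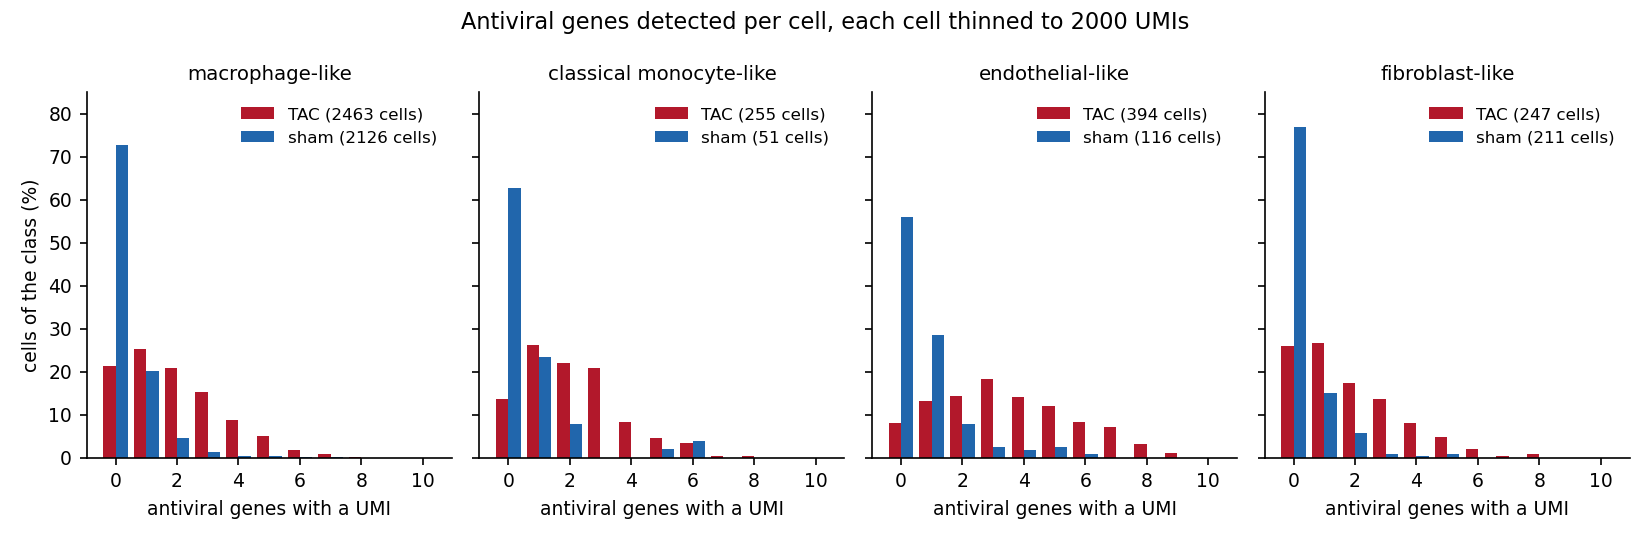
Share of cells (%) by how many of the 10 genes had a UMI after thinning to 2000 UMIs, in 4 cell classes, TAC in red and sham in blue. Sham cells pile up at 0 genes, which holds 21.4% of TAC and 72.6% of sham macrophage-like cells, and TAC endothelial-like cells reach furthest right.

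Macrophage-like cells of the libraries lay mostly in different clusters, so the difference was also read within clusters. The genes themselves and the other interferon lists had no part in the clustering, but other inducible genes such as Gbp8 did, so the clusters are not independent of the response. The 340 TAC and 157 sham cells of cluster 5, led by cell cycle genes, differed 6.54-fold in the member sum (6.03 to 7.10), with all 10 members at least 1.5-fold higher beside 11.1% of measured genes, and 0 lower beside 22.5%. The 212 TAC and 85 sham cells of cluster 13, led by the stress genes Gdf15 and Areg, differed 2.50-fold (2.21 to 2.84), with 7 of 8 measured members higher beside 12.0%, and 0 lower beside 17.3%. In cluster 13 Ifit1 was at 35.2 CPM in TAC and 43.9 CPM in sham, a ratio of 0.803 (0.551 to 1.19). In cluster 1, led by Ednrb, Retnla and Ccl24, 77 TAC cells were at 384 CPM and 863 sham cells at 213 CPM, 1.81-fold higher (1.61 to 2.02). There 5 of 8 measured members passed 1.5-fold, beside 13.8%, and 1, Ifit2, was lower, beside 14.8%, at 5.19 CPM in TAC and 8.62 CPM in sham with an interval that included 1 (0.190 to 1.47). TAC macrophage-like cells with the expression of this sham-rich cluster thus held much less of the genes than the 899 TAC cells of cluster 2, at 1815 CPM. A few sham cells stood at the other end. The 8 sham cells of cluster 2 were at 7924 CPM (7323 to 8561) and the 8 sham cells of cluster 10 at 4006 CPM, above the TAC cells of cluster 10 at 1730.2 CPM. Of these 16 sham barcodes, 0 occurred in the TAC library, and whether their RNA came from that library by another route was not tested. They are part of the sham macrophage-like levels and folds given above, and values without them were not computed. Counting intervals do not cover such unevenness between cells. These clusters were singled out after their values were seen.

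**Figure D5:**
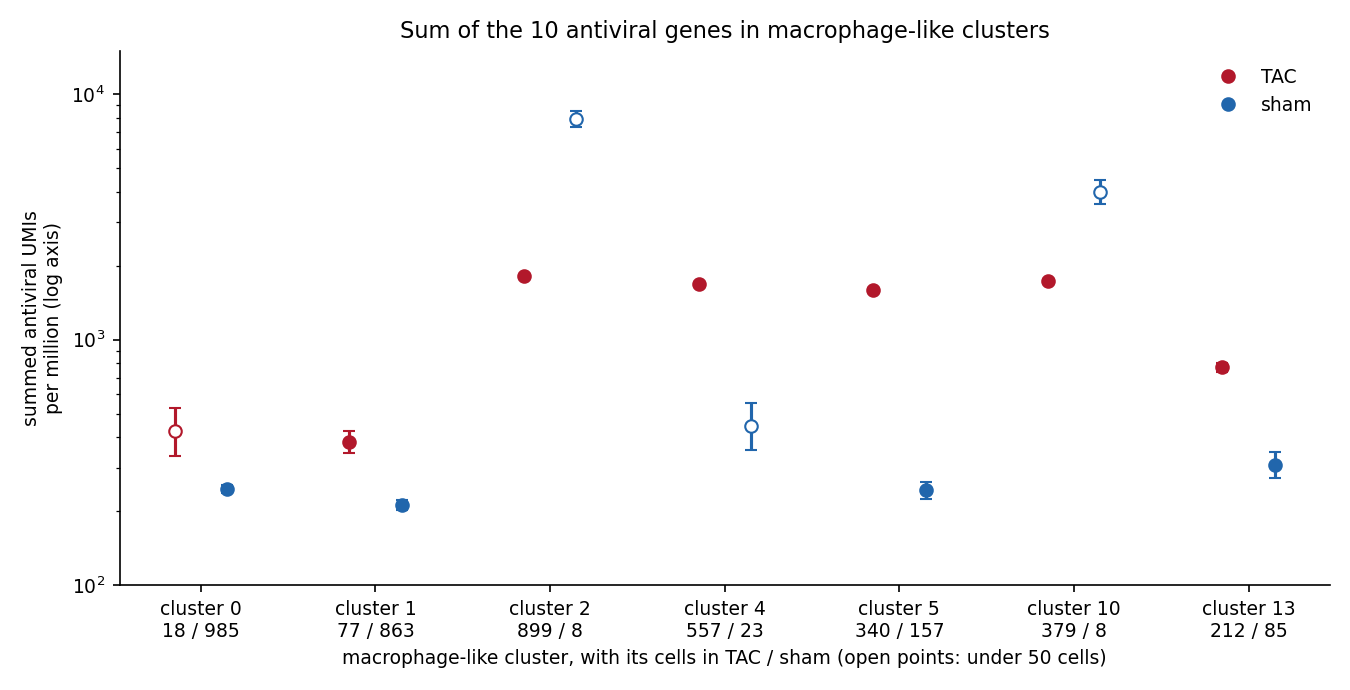
Summed CPM of the 10 genes (log axis) in each macrophage-like cluster, TAC in red and sham in blue, with 95% Poisson intervals; cell numbers stand under each cluster and open points rest on under 50 cells. TAC lies above sham in clusters 0, 1, 4, 5 and 13, and the 8 sham cells each of clusters 2 and 10 lie above TAC.

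The rest of the pathway was read from lists in macrophage-like cells, each count beside the 14.0% of all measured genes that were higher and the 22.9% that were lower. Of the receptor genes, 1 of 5 measured passed 1.5-fold upward in TAC and 1 downward, near those shares. Ifnar2 was at 207 CPM in TAC and 133 CPM in sham, 1.56-fold higher (1.49 to 1.63), and Ifnar1 at 50.5 CPM in TAC and 61.9 CPM in sham. Ifngr1 was at 158 CPM in TAC and 245 CPM in sham, a ratio of 0.644, and Ifngr2 at 94.2 CPM in TAC and 85.6 CPM in sham. Among 11 signalling genes, 6 were higher and 0 lower. Irf7, the factor that amplifies interferon production, was 6.41-fold higher, while Jak1 was at 136 CPM in TAC and 189 CPM in sham and Irf3 at 23.7 CPM in TAC and 27.7 CPM in sham. Of 14 sensors and adaptors of nucleic acid, 4 were higher and 0 lower. Dhx58, a regulator of RNA sensing, was 3.44-fold higher and Tlr9, a DNA receptor, 2.09-fold, and Mavs, the mitochondrial adaptor of RNA sensing, was at 10.1 CPM in TAC and 10.5 CPM in sham. Tlr7 was at 44.9 CPM in TAC and 66.8 CPM in sham. Among 5 feedback genes, 4 were higher, with Socs1, an inhibitor of JAK kinases, 4.19-fold and Ptpn2 1.56-fold higher, and Socs3 at 525 CPM in TAC and 547 CPM in sham.

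Interferon genes themselves were sparse. Of 21, 3 had at least 20 UMIs in macrophage-like cells. Of these, 2 were past 1.5-fold upward, beside 14.0% of all measured genes, and 0 downward, beside 22.9%. Ifnb1, the interferon beta gene, was at 12.9 CPM in TAC and 11.5 CPM in sham, 1.12-fold (0.960 to 1.31). In T-like cells it was at 1.46 CPM in TAC and 8.48 CPM in sham, on 10 TAC and 21 sham UMIs, a ratio of 0.172 (0.0725 to 0.382). In B-like cells it was at 20.6 CPM in TAC and 7.27 CPM in sham, on 21 TAC and 17 sham UMIs, 2.83-fold higher (1.42 to 5.71). By C1q, 70.3% of TAC and 93.4% of sham T-like barcodes were mixed, and 71.9% and 98.7% of B-like barcodes. How much of these Ifnb1 values came from macrophage RNA in the same barcodes was not tested. Ifna2 had 27 UMIs in TAC and 0 in sham macrophage-like cells, at least 5.06-fold higher if 3 UMIs are set as the sham floor. Ifng had 21 UMIs in TAC and 1 in sham macrophage-like cells. In T-like cells Ifng, the interferon gamma gene, was at 244 CPM in TAC and 37.96 CPM in sham, 6.43-fold higher (5.22 to 8.002), and in NK-like cells at 433 CPM in TAC and 134 CPM in sham, 3.24-fold higher (2.66 to 3.98). The lymphocyte values of Ifnb1 and the Ifng values are given after their values were seen.

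Other inducible genes moved the same way. Of 36 other genes typical of type I interferon, 30 passed 1.5-fold upward in TAC macrophage-like cells, beside 14.0% of all measured genes. Downward 0 passed, beside 22.9%, and the median log2 ratio of the list was 1.19. Ms4a4c, a membrane protein, was 11.9-fold higher and Ifi205, a sensor of the HIN-200 family, 7.14-fold, while Samd9l was at 105 CPM in TAC and 101 CPM in sham and Trim25, a ubiquitin ligase of RNA sensing, at 74.1 CPM in TAC and 93.7 CPM in sham. Of 15 measured genes typical of interferon gamma, 15 passed upward and 0 downward, beside the same shares. Their median log2 ratio was 3.93, beside 2.70 for the 10 antiviral genes. Gbp4 and Gbp2b, guanylate-binding GTPases, were 87.5-fold and 87.2-fold higher, and the lowest folds were those of Ciita, the master regulator of MHC class II, at 2.17 and Irgm2 at 3.92. The interferon gamma median lay above the antiviral one in all 7 compared classes, and the medians were nearest in B-like cells, at 3.46 and 3.28 on the log2 scale.

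Among the genes whose levels followed the 10 most closely were Gbp5, Gbp2, Igtp and Xaf1, with Pearson r of 0.969, 0.962, 0.955 and 0.955 to the mean of the members' standardised log2(CPM + 1). These r describe 14 points, 7 classes in each of 2 libraries, among 11113 genes. Points of a library share its cells, depth and group, so the difference between the libraries sets much of each r.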

How the data were processed

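Per the submitters' processing notes, reads were processed by the authors with Cell Ranger 3.0 on mm10, and the deposited values are UMI counts per gene and barcode. The 10 members, the other gene lists and the alternatives were chosen with earlier results of these data known. Barcodes were kept from 300 detected genes upward when mitochondrial UMIs made up no more than 10%. Cells were clustered with scanpy 1.11.5 and leidenalg 0.10.2 (2000 variable genes without the interferon lists, 30 principal components, 15 neighbours, resolution 1) and named by markers. No doublet caller was run; barcodes with over 0.3% of UMIs from C1q or from S100a8 and S100a9 outside the matching class were left out as an alternative. UMIs were summed per class and library, with exact Poisson, conditional binomial and Clopper-Pearson intervals (scipy 1.17.1), and genes with at least 20 UMIs over both libraries were measured. Median log2 ratios used 0.5 UMI added to each count. Promoter sequences came from RefSeq. The genes named are the 10 members, the 2 highest and 2 lowest ratios of each other list in macrophage-like cells among genes with at least 50 UMIs, and the 5 genes most alike in pattern; exceptions are stated, and some genes that the rule names are not reported here. The computation was tested on simulated data.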

Additional observations from a re-analysis of the deposited data

Results flagged for a closer look

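Barcodes outside the compared classes also showed the difference, and none of these sets entered the comparisons. In barcodes with over 10% and at most 25% mitochondrial UMIs (1067 in TAC and 4966 in sham) the 10 genes summed to 2737 CPM in TAC and 279 CPM in sham, 9.82-fold higher. This set was pooled over all cell types and was not split by class. Among kept barcodes, neutrophil-like ones, given next, were far more numerous in TAC than in sham and had a high member sum in TAC. How much of the 9.82-fold difference came from an unlike mix of cell types was not tested. Neutrophil-like barcodes (1153 in TAC and 25 in sham) were at 3710 CPM in TAC and 368 CPM in sham, 10.1-fold higher. Non-classical monocyte-like barcodes (134 in TAC and 18 in sham) were at 1461 CPM in TAC and 176 CPM in sham, 8.3-fold higher. Dendritic-like barcodes (42 in each library) were at 779 CPM in TAC and 152 CPM in sham, 5.13-fold higher. Unnamed barcodes (383 in TAC and 1181 in sham) were at 782 CPM in TAC and 183 CPM in sham, 4.26-fold higher. The small sham numbers of neutrophil-like and non-classical monocyte-like barcodes limit these values.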

How the results depend on the processing

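Of 288 values recomputed under the alternatives, 271 were labelled the same, 17 moved and 0 reversed. A count was the same within 1.5-fold of its main value and could not be labelled reversed. A median was the same inside a range set by the spread of its members' main ratios, 1.68 to 3.36 in fibroblast-like cells. A difference in share of cells was the same within its counting error. The median log2 ratio of the members ran between 2.57 and 2.84 in macrophage-like, 1.94 and 2.69 in endothelial-like, 2.38 and 3.26 in fibroblast-like and 1.23 and 2.42 in classical monocyte-like cells. Classical monocyte-like cells depended most on the setting, with a median of 1.37 without mixed barcodes and 1.23 after thinning each cell to 1000 UMIs. After that thinning fewer members reached 20 UMIs. Members at least 1.5-fold higher in TAC were then 5 of 6 in classical monocyte-like, 6 of 7 in T-like, 1 of 1 in NK-like and 2 of 2 in B-like cells. Those with an interval above 1 were 2, 6, 1 and 2 in the same classes. The share of all genes past 1.5-fold is not given at that depth, so these counts have no such share beside them. The median log2 ratio of all measured genes there was 0.07, 0.18, 0.21 and 0.06 in the same order. The difference in macrophage-like cells with at least 1 member was 51.2 percentage points at 2000 UMIs and 45.6 at 1000. Members with a higher share of cells in TAC, with separate intervals, were 2 in classical monocyte-like cells, 10 without thinning and 5 with up to 25% mitochondrial UMIs. They were 1 in NK-like cells, 4 without thinning and 2 with up to 25% mitochondrial UMIs. In T-like and B-like cells they were 5 each, and 9 each without thinning. The share of all genes with separate intervals was not computed, so these counts also have no such share beside them. Without thinning, the TAC cells of these 4 classes were deeper, with medians of 17963 UMIs in TAC and 9785 in sham classical monocyte-like cells. The unthinned counts therefore hold that difference in depth as well. Median-of-ratios scaling moved the median of all genes by 0.14 in macrophage-like and 0.12 in fibroblast-like cells on the log2 scale, a shift common to all genes. Leaving out mixed barcodes was not run for T-like, NK-like and B-like cells, where 10, 3 and 2 sham cells remained. No paired analysis was possible because each group is 1 library. With 1 library per group, the operation cannot be told apart from library, depth or handling, and sparse genes such as Ifi44 and Ifit1bl1 rest on few sham UMIs.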

Other observations

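The lists of other inducible genes were also read outside macrophage-like cells. Of 35 measured genes typical of type I interferon besides the 10, 29 passed 1.5-fold upward in TAC endothelial-like cells, 27 in fibroblast-like cells and 22 in classical monocyte-like cells, beside 15.2%, 9.69% and 20.7% of all measured genes. In each class 0 passed downward. Their median log2 ratios were 1.49, 1.06 and 0.62 in that order. The interferon gamma list had medians of 3.76 in endothelial-like, 4.29 in fibroblast-like and 3.72 in classical monocyte-like cells, with 15 of 16, 13 of 14 and 15 of 15 measured genes past 1.5-fold upward, beside the same shares. Nos2, the inducible nitric oxide synthase, was the 1 gene of that list past 1.5-fold downward, at 21.5 CPM in TAC and 35.98 CPM in sham endothelial-like cells. The members' own medians in these classes were 2.27, 2.61 and 2.03. Of the other type I genes, 29 of 36 measured passed upward in T-like, 15 of 35 in NK-like and 30 of 35 in B-like cells. Of all measured genes 19.6%, 25.1% and 15.3% did. The list medians there were 0.93, 0.42 and 1.11, and most sham barcodes of these lymphocyte classes were mixed.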
